A study of Mus musculus with 31 samples.

Results

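The 45 genes described here act in DNA synthesis and in mitosis, and their transcripts are used as a readout of how much of a tissue is dividing. They were taken from a list of member symbols, 1 probe set per gene, the one with the highest mean over all arrays among the probe sets annotated with exactly that symbol. By this rule 44 of the 45 genes were measured, out of 18194 genes on the array, and Ccnb1 was not analysed here. The 44 genes comprise 14 of S phase, 13 cyclins, kinases and checkpoint genes, 7 genes of kinesins, spindle and midzone, and 10 of centromeres, condensin and chromosome structure. RNA came from whole fetal gonads of wild-type mouse embryos and of embryos homozygous for Wv, a point mutation of the receptor tyrosine kinase gene Kit that weakens its kinase and on which germ cell survival and migration depend. Both ovaries and testes were taken at 12, 14 and 16 dpc (days after mating), and each of the 31 RNA samples was hybridised to 1 Affymetrix array. Wild-type (WT) ovaries had 2, 3 and 3 arrays at the 3 ages and Wv/Wv ovaries 2, 3 and 3, while WT testes had 1, 3 and 3 and Wv/Wv testes 3, 2 and 3. The labels give no strain background and no treatment. Replicates are called biological in the labels, which do not say whether each came from its own embryo, litter or pool. The p-values therefore rest on the variation seen from sample to sample, some of which may be technical.

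A cell that commits to division first licenses and fires its replication origins, copies its DNA with nucleotides made for the purpose, then condenses its chromosomes, builds a spindle and waits at a checkpoint until every kinetochore is attached. Genes of the first step (the Mcm helicase, Cdc6, Cdc45, ribonucleotide reductase) are classical targets of E2F factors, and those of the second (cyclins A and B, Bub1, aurora kinases, kinesins) are repressed in resting cells through paired promoter elements called the cell cycle-dependent element and the cell cycle genes homology region, often beside CCAAT boxes. In the fetal gonad germ cells and somatic cells both divide. Germ cells of the ovary leave mitosis for meiosis in midgestation, those of the testis arrest, Sertoli cells go on dividing in the cords, and pregranulosa cells of the ovary leave the cycle.

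Promoters are shown here because 39 of the 44 genes shared their lowest level, in Wv/Wv ovaries at 14 or 16 dpc. RefSeq windows (build GRCm38.p6) reaching from 250 bases before to 50 bases after a transcription start were matched by symbol for 38 of the 45 genes, in 40 windows. Below are the 250 bases before the start of 5 of them, written 5′ to 3′ on the strand of the gene, with 3 motifs in capitals wherever they occur on either strand. The motifs are TTTGAA (the core of the homology region), CCAAT, and TTTGGCGC or TTTCGCGC (E2F). In order the genes are the checkpoint kinase gene Bub1 (chr2:127831860-127832109, minus strand), the B-type cyclin gene Ccnb2 (chr9:70421555-70421804, minus strand), the aurora kinase gene Aurka (chr2:172370571-172370820, minus strand), the kinetochore gene Cenpf (chr1:189688087-189688336, minus strand) and the replicative helicase gene Mcm5 (chr8:75109259-75109508, plus strand).
Bub1: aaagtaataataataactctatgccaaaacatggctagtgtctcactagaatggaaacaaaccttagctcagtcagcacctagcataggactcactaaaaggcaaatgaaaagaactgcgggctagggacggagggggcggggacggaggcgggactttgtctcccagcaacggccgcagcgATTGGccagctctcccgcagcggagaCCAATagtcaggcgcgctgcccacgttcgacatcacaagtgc
Ccnb2: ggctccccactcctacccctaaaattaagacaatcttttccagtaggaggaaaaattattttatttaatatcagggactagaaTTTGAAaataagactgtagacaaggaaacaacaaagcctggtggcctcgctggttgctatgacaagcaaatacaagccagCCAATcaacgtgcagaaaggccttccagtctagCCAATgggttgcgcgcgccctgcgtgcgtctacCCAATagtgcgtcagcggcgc
Aurka: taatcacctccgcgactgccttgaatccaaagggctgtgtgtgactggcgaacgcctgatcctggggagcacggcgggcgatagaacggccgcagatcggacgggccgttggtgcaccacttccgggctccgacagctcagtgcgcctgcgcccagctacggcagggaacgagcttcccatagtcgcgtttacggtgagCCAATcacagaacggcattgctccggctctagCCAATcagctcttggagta
Cenpf: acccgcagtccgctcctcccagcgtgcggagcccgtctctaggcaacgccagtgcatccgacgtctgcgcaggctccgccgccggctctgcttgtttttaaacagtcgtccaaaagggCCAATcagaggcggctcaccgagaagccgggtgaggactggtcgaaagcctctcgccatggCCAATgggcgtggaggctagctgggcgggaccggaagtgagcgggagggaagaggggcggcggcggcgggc
Mcm5: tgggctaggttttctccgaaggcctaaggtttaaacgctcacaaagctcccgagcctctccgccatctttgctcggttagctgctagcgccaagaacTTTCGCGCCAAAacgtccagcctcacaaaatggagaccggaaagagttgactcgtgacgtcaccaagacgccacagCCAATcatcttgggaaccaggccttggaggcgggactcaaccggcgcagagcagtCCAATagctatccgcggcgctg
Each of the 5 stretches held at least 2 CCAAT boxes, with the nearest to the start 38 bases before it in Bub1, 17 in Ccnb2, 15 in Aurka, 67 in Cenpf and 18 in Mcm5. TTTGAA ended 162 bases before the start in Ccnb2 and was also found just after the start, from position 5 in Ccnb2, 33 in Aurka and 3 in Cenpf, while neither Bub1 nor Mcm5 held it in the window. In Mcm5 a pair of E2F matches on opposite strands overlapped, ending 146 and 142 bases before the start. Over all member windows 33 of 40 (82.5%) held CCAAT, against 37.4% of 32851 mouse windows, 22 (55%) held TTTGAA, against 17.9%, and 6 (15%) held an E2F match, against 0.813%. The role groups differed in which motif they carried. TTTGAA was in 2 of 13 S phase windows (15.4%) but in 8 of 12 windows of cyclins, kinases and checkpoint genes (66.7%), 5 of 6 of kinesins and spindle genes (83.3%) and 7 of 9 of centromere and condensin genes (77.8%). E2F matches were in 4 of the 13 S phase windows (30.8%), those of Mcm3, Mcm5, Mcm6 and Mcm7. A match describes letters and not a bound site. Mcm7 and Prc1 have a pair of windows each, and those of Prc1 overlap.

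Values are log2 signals as deposited, a log2 change of 1 being a doubling, and changes were tested with limma in 1 fit over all arrays and genes, where a gene counts as called if its p, adjusted by the method of Benjamini-Hochberg, is below 0.05. The arrays fell into 2 classes by the spread of their values, which touches every result below. On 10 arrays (narrow-spread) the SD over all probe sets was 1.77 to 2.18, and on 21 (wide-spread) it was 2.33 to 2.39. The difference between 3′ and 5′ control probe sets of Gapdh also separated them, at 0.51 to 1.12 on narrow and 1.75 to 2.56 on wide arrays. All 3 WT ovary arrays at 16 dpc were narrow, as were WT ovary 14 dpc replicate 1, Wv/Wv ovary 14 dpc replicates 2 and 3, Wv/Wv ovary 16 dpc replicate 2, WT testis 16 dpc replicate 1, Wv/Wv testis 14 dpc replicate 2 and Wv/Wv testis 16 dpc replicate 1. WT testis 16 dpc replicate 1 had the lowest SD. The 44 genes are highly expressed (their median of mean signals was 9.95, against 7.14 for all genes) and read lower on narrow arrays. Within the 6 groups that hold both classes the members' median difference, narrow minus wide, was -1.73 to -0.42, while the median of all genes was -0.48 to -0.03. Rrm2, Ube2c and Mad2l1 went the other way and were higher on narrow arrays in 5 of 6 groups. Counts are therefore given from the deposited values and from a second fit that holds the array class as a term and leaves out the array of lowest SD, called the class-adjusted fit below. The sexes read as labelled: the summed signal of 8 Sertoli cell markers was 12.16 to 14.30 (log2 of the sum) in testes and 9.63 to 10.77 in ovaries.

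Wv/Wv ovaries at 14 and 16 dpc had the lowest levels of most of these genes. Of the 44 genes 23 had their lowest group mean in Wv/Wv ovaries at 14 dpc and 16 in Wv/Wv ovaries at 16 dpc, while 4 had it in WT ovaries and 1 in WT testes at 16 dpc. The highest group mean was in testes for 37 of 44 genes: in WT testes at 12 dpc for 19, WT testes at 14 dpc for 9 and Wv/Wv testes at 12 dpc for 9. To set arrays of different spread side by side, the members' median on each array was also placed relative to that array's median gene, in units of its own SD. On this scale the Wv/Wv ovary arrays read 0.72 to 0.90 at 14 dpc and 0.69 to 0.79 at 16 dpc. Every other array read higher, from 0.98 (WT testis 16 dpc replicate 1) to 1.41. Wv/Wv ovaries at 12 dpc, at 1.19 to 1.24, did not share the low position.

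**Figure D1:**
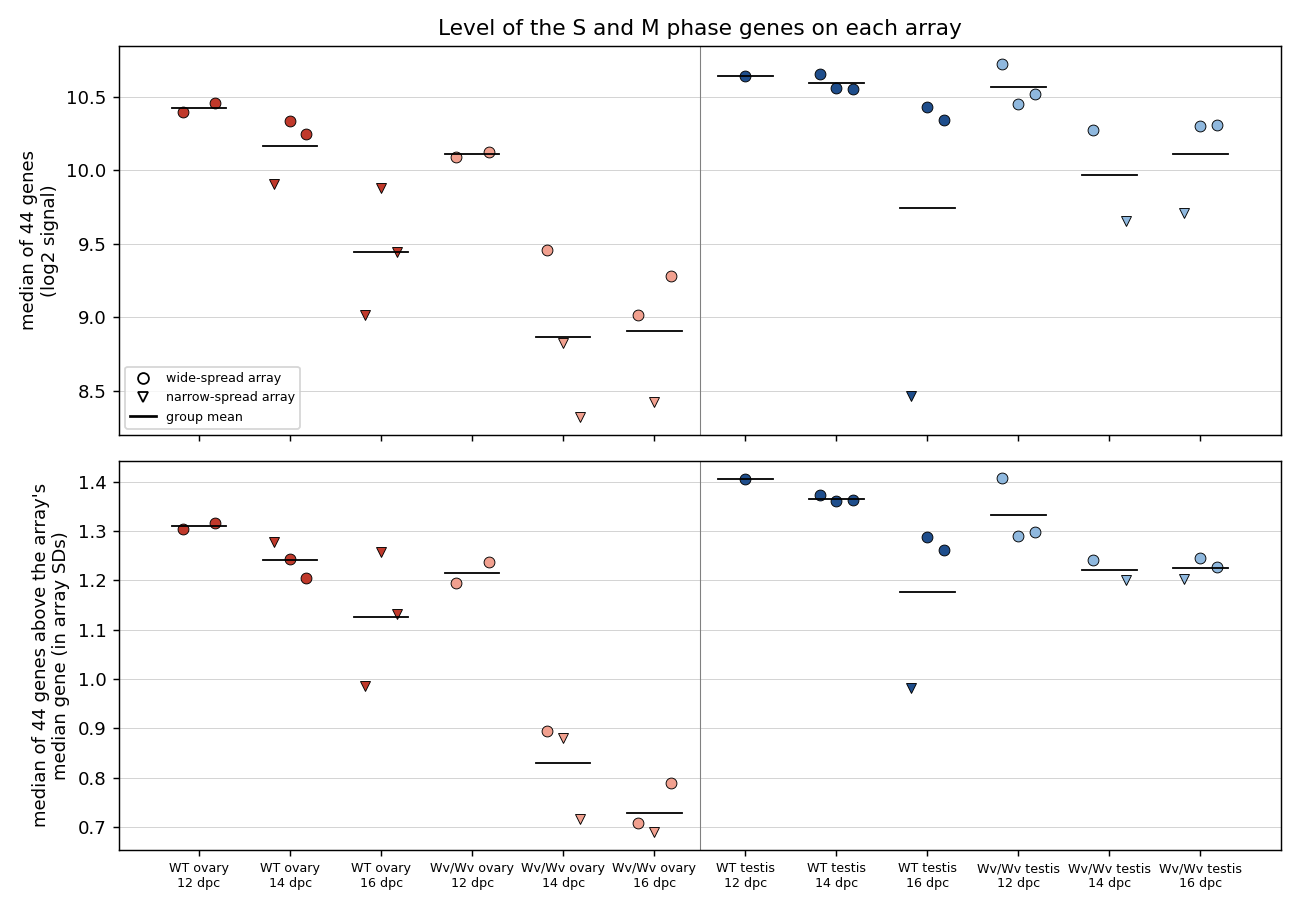
Median of the 44 genes on each of the 31 arrays, in log2 signal (top) and as the distance above that array's median gene in array SDs (bottom); points are arrays, triangles narrow-spread ones, and bars group means. The 6 Wv/Wv ovary arrays at 14 and 16 dpc lie at 0.69 to 0.90 SD, under every other array.

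**Figure D2:**
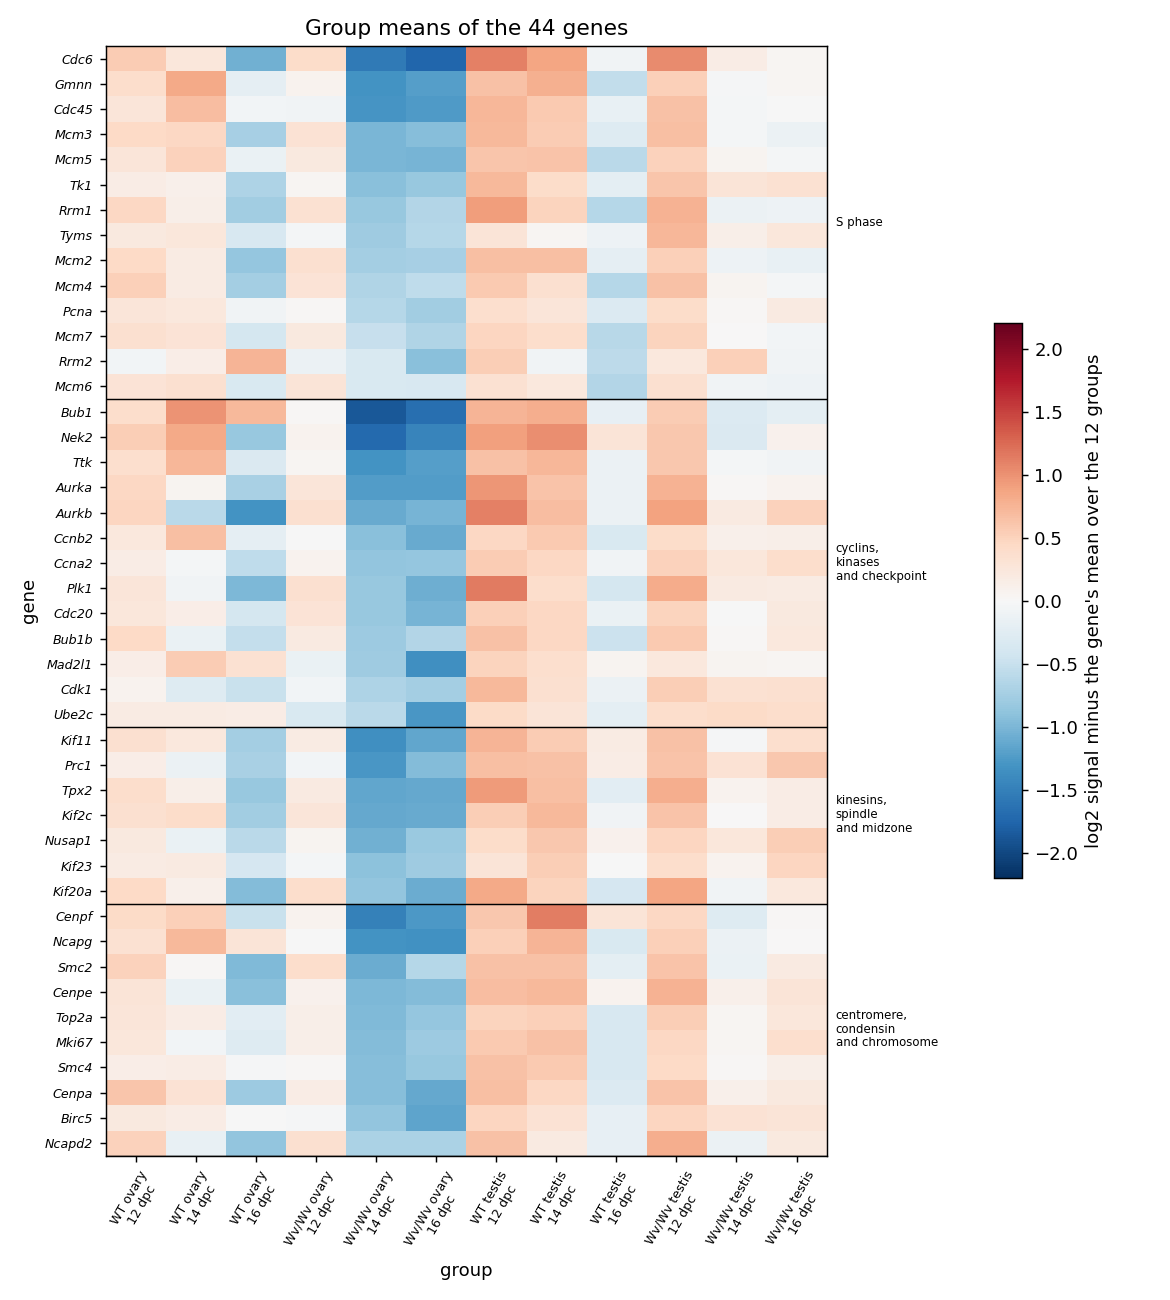
Group means of the 44 genes, each as log2 signal minus the gene's mean over the 12 groups, ordered by role group and within it by the value in Wv/Wv ovaries at 14 dpc. Blue columns mark Wv/Wv ovaries at 14 and 16 dpc, where 39 of the 44 genes have their lowest mean.

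The comparison of Wv/Wv with WT ovaries asks which transcripts of the whole gonad differ with the Kit genotype. At 12 dpc, with 2 arrays per genotype, 42 of the 44 means were lower in Wv/Wv ovaries, though by little. On simulated data the fit called only 8% of genes changed by log2 1 in this comparison. No member was called in limma and 0 had an unadjusted p under 0.05, with a median log2 change of -0.16 (all genes 0.00) and 0.0934% of all genes called. The 2 largest changes were in Ube2c, which loads ubiquitin for the anaphase-promoting complex (-0.52, SE 0.41), and Nek2, a centrosome kinase (-0.46, SE 0.60). Mki67, Bub1, Ccnb2, Cdk1, Mcm5 and Pcna lay between -0.37 and -0.05. In 29 of 44 genes both Wv/Wv arrays read below both WT arrays, against 17.5% of all genes.

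At 14 dpc 13 of 44 genes were lower in Wv/Wv ovaries and none higher, against 4.08% of all genes called lower, and the members' median log2 change was -1.06 (all genes 0.00). All 44 means were lower in the mutant, and in 32 genes the 3 Wv/Wv arrays lay below the 3 WT arrays (10.9% of all genes). With the class-adjusted fit 41 were lower (14.7% of all genes), the 13 among them, at a median of -0.91. Cdk1, Ncapd2 and Aurkb were the 3 that did not pass there.

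Bub1, the kinase that builds the checkpoint at kinetochores, changed most. Its log2 signal was 10.67, 11.54 and 10.90 on the WT ovary arrays and 9.21, 8.00 and 7.35 on the Wv/Wv arrays. The groups were far apart. The highest mutant value came from the wide-spread array, which also had the highest summed log2 signal of germ cell markers (9.91, against 8.62 and 8.64). The difference was 7.22-fold (log2 change -2.85, SE 0.47, limma adjusted p = 0.000406). Nek2 read 8.56, 10.10 and 9.84 in WT and 7.99, 6.72 and 6.19 in Wv/Wv ovaries (log2 change -2.53, SE 0.49, adjusted p = 0.00237). The groups did not overlap, but the lowest WT value, on a narrow array, was close to the highest mutant one, on a wide array. Mad2l1, the checkpoint protein that holds back anaphase, read 11.19, 11.07 and 10.82 in WT and 9.59, 9.99 and 9.48 in Wv/Wv ovaries. It had the smallest adjusted p of the members (log2 change -1.34, SE 0.21, adjusted p = 0.000166), and its groups were separated within either array class. Ccnb2, the B-type cyclin of mitotic entry, read 10.88, 10.87 and 10.73 in WT and 9.44, 9.46 and 8.89 in Wv/Wv ovaries (log2 change -1.57, SE 0.32, adjusted p = 0.00359). Ttk, the kinase upstream of Bub1 at the checkpoint, fell by 2.04 and Aurka by 1.29 on the log2 scale, with adjusted p of 0.000328 and 0.0148. Cdk1 itself, the kinase that cyclin B activates, read 10.17, 10.18 and 10.24 in WT and 9.92, 9.94 and 9.54 in Wv/Wv ovaries. Its groups did not overlap, yet the change was small and not called (-0.40, SE 0.24, adjusted p = 0.423).

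Of the S phase genes 2 of 14 were called at 14 dpc, with a group median of -0.99, and all 14 with the class-adjusted fit. Gmnn encodes geminin, which stops origins from being licensed again, and read 10.56, 11.20 and 10.97 in WT and 9.66, 8.63 and 7.97 in Wv/Wv ovaries (log2 change -2.15, SE 0.50, adjusted p = 0.0104). Cdc45, a part of the active helicase, read 8.03, 8.63 and 8.27 against 6.95, 6.29 and 5.78 (-1.97, SE 0.34, adjusted p = 0.000583). In both genes every mutant array lay below every WT array. Mcm5 gave 11.14, 11.80 and 11.64 in WT and 10.78, 10.03 and 9.26 in Wv/Wv ovaries, without passing the test (-1.51, SE 0.46, adjusted p = 0.0699). Pcna, the sliding clamp of the replication fork, changed by -0.87 (SE 0.27, adjusted p = 0.0787). In the class-adjusted fit Mcm5 was at -1.22 and Pcna at -0.79, with adjusted p of 2.52e-05 and 2.15e-05.

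Among kinesins and spindle genes 2 of 7 were called (group median -1.14), and 7 of 7 with the class-adjusted fit. Kif11, the motor that pushes spindle poles apart, read 8.37, 9.17 and 9.16 in WT and 8.06, 7.26 and 6.63 in Wv/Wv ovaries (-1.58, SE 0.37, adjusted p = 0.0104). Kif2c, a microtubule depolymerase at centromeres, fell by 1.53 on the log2 scale (adjusted p = 0.0104). Of the centromere, condensin and chromosome genes 3 of 10 were called (group median -1.11), and 9 with the class-adjusted fit. Ncapg, a condensin subunit, read 8.62, 9.21 and 8.68 in WT and 7.50, 6.64 and 6.25 in Wv/Wv ovaries (-2.04, SE 0.45, adjusted p = 0.00821). Cenpf fell by 2.00 and Birc5 (survivin, of the chromosomal passenger complex) by 1.03, with adjusted p of 0.00785 and 0.0238. Mki67, the gene of the common proliferation antigen, had overlapping groups, 11.08, 11.76 and 11.89 in WT against 11.37, 10.60 and 10.07 in Wv/Wv ovaries (-0.90, SE 0.46, adjusted p = 0.332). The overlap set 1 wide-spread mutant array against 1 narrow-spread WT array, and with the class-adjusted fit Mki67 was called at -0.63 (adjusted p = 0.00531).

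The number called at 14 dpc moved with single arrays. It was 6 without WT ovary replicate 2 or without Wv/Wv ovary replicate 3, 30 without Wv/Wv ovary replicate 1, and 33 without WT testis 16 dpc replicate 1, an array of neither group that enters through the common variance. Within wide-spread arrays alone (2 against 1) 32 genes were lower, at a median of -0.75, and within narrow-spread arrays alone (1 against 2) 7 were lower, at -1.05.

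**Figure D3:**
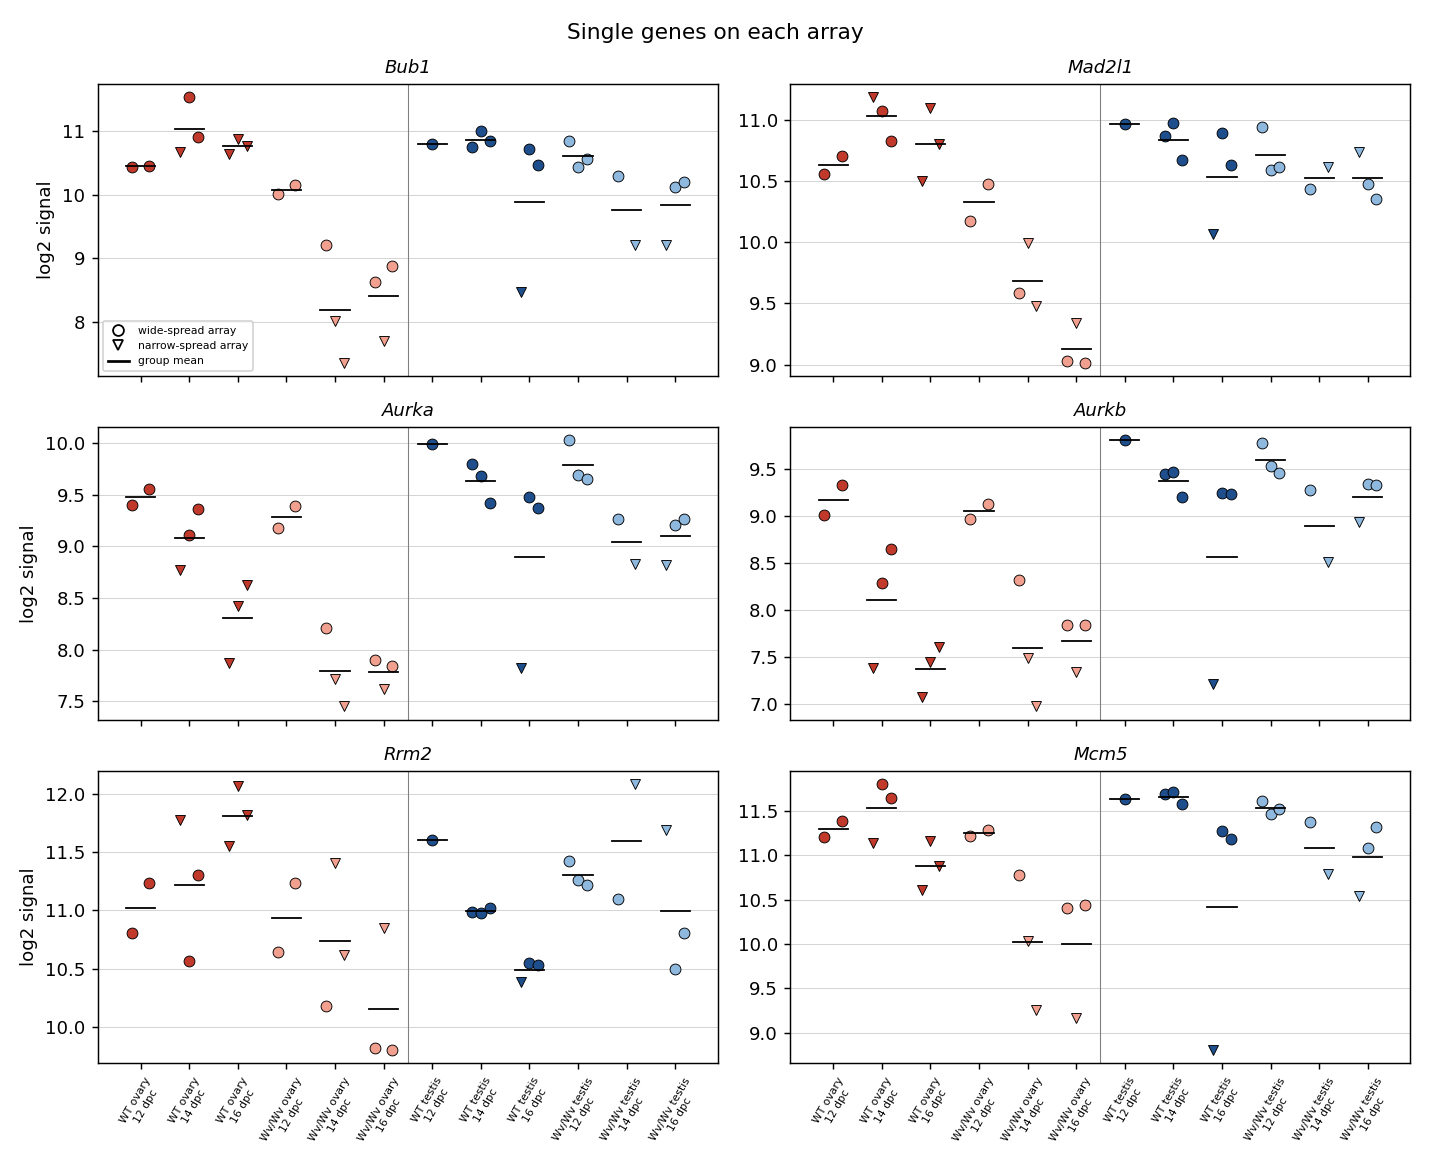
Log2 signal of Bub1, Mad2l1, Aurka, Aurkb, Rrm2 and Mcm5 on each array, by group; triangles are narrow-spread arrays and bars group means. The means of Bub1 and Mad2l1 are lowest in Wv/Wv ovaries at 14 and 16 dpc, that of Aurkb is lowest in WT ovaries at 16 dpc, and Rrm2 is higher on narrow-spread arrays in 5 of 6 groups.

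At 16 dpc, where all WT ovary arrays were narrow-spread, 7 of 44 genes were lower in Wv/Wv ovaries and none higher, against 2.35% of all genes called lower. The members' median log2 change was -0.37 (all genes 0.03), 38 means were lower, and in 15 genes the mutant arrays lay below the WT arrays (11.1% of all genes). The class-adjusted fit had 33 lower (8.95% of all genes), the 7 among them, at a median of -0.81. Of the 13 genes called at 14 dpc and the 7 called at 16 dpc, 5 were shared: Bub1, Mad2l1, Ncapg, Cdc45 and Birc5.

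Bub1 read 10.64, 10.88 and 10.76 in WT and 8.63, 7.70 and 8.88 in Wv/Wv ovaries at 16 dpc, 5.13-fold lower (log2 change -2.36, SE 0.47, adjusted p = 0.00452). The WT values were as high as at 14 dpc and far above the mutant ones, although on narrow arrays. Mad2l1 read 10.50, 11.10 and 10.80 in WT and 9.03, 9.34 and 9.01 in Wv/Wv ovaries (-1.68, SE 0.21, adjusted p = 8.45e-06). Here too the groups were well apart, and the narrow-spread mutant array was the highest of the 3. Ube2c read 10.25, 11.02 and 10.85 against 8.93, 9.82 and 9.03 (-1.45, SE 0.33, adjusted p = 0.0147), and Rrm2, the regulated subunit of ribonucleotide reductase, 11.55, 12.07 and 11.82 against 9.82, 10.85 and 9.80 (-1.65, SE 0.35, adjusted p = 0.00769). Both genes are among the 3 that read higher on narrow arrays, and the narrow-spread mutant array was again the highest. Their changes were -0.95 and -1.02 in the class-adjusted fit, both still called. Ncapg, Cdc45 and Birc5 fell by 1.62, 1.19 and 1.15 on the log2 scale (adjusted p of 0.0475, 0.049 and 0.0148).

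The role groups split as 2 of 14 S phase genes, 3 of 13 cyclins, kinases and checkpoint genes, 0 of 7 kinesins and spindle genes (0 also at an unadjusted p under 0.05 in limma) and 2 of 10 centromere and condensin genes, and as 10, 9, 6 and 8 in the class-adjusted fit. Ccnb2, Mcm5, Pcna and Mki67 changed by -0.92, -0.88, -0.69 and -0.52 without being called and were called in the class-adjusted fit, at -0.99, -1.45, -0.84 and -1.05. Cdk1 was called in neither (-0.25, adjusted p = 0.514; class-adjusted -0.27). The count was 3 without WT ovary replicate 2, WT ovary replicate 3 or Wv/Wv ovary replicate 3, 2 without Wv/Wv ovary replicate 1, and 13 without WT testis 16 dpc replicate 1. Within narrow-spread arrays alone (3 against 1) 8 genes were lower, at a median of -0.88.

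Markers of several cell types moved with genotype in the same ovaries. At 12 dpc 3 of 10 germ cell markers were lower in Wv/Wv ovaries (list median -2.70). Of 10 germ cell markers 9 were lower in Wv/Wv ovaries at 14 dpc, their summed log2 signal being 13.70 to 14.07 in WT and 8.62 to 9.91 in Wv/Wv, and 5 were lower at 16 dpc (12.47 to 13.66 against 8.90 to 9.54). Ddx4, a germ cell RNA helicase gene, read 3.13 to 6.46 and 3.19 to 3.95 in the mutant ovaries at the 2 ages, mostly under 5.39, the 40th percentile of all values. Of 10 meiosis genes 9 were lower at each age, 12.80 to 13.86 against 10.01 to 10.30 at 14 dpc and 13.67 to 13.92 against 9.98 to 10.59 at 16 dpc. Erythroid genes were lower as well, 3 of 6 at 14 dpc (9.83 to 12.02 against 8.70 to 8.89) and 2 of 6 at 16 dpc (10.44 to 12.06 against 9.02 to 9.94), and mast cell genes in 1 of 4 and 3 of 4 (7.24 to 9.10 against 6.59 to 7.58, then 7.74 to 9.32 against 6.53 to 7.20). Pregranulosa markers (13.32 to 13.50 against 13.57 to 13.88 at 14 dpc) had 0 of 7 called at either age in limma. In the other direction, 1 of 3 markers of mesonephros and tubule was higher in Wv/Wv ovaries at 14 dpc (7.04 to 7.48 against 8.39 to 8.70) and 1 of 5 macrophage markers at 16 dpc (9.60 to 10.30 against 10.32 to 10.97). The part of these cells in the lower division genes was not tested, and in whole gonads fewer cells of a type and less RNA per cell cannot be told apart.

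**Figure D4:**
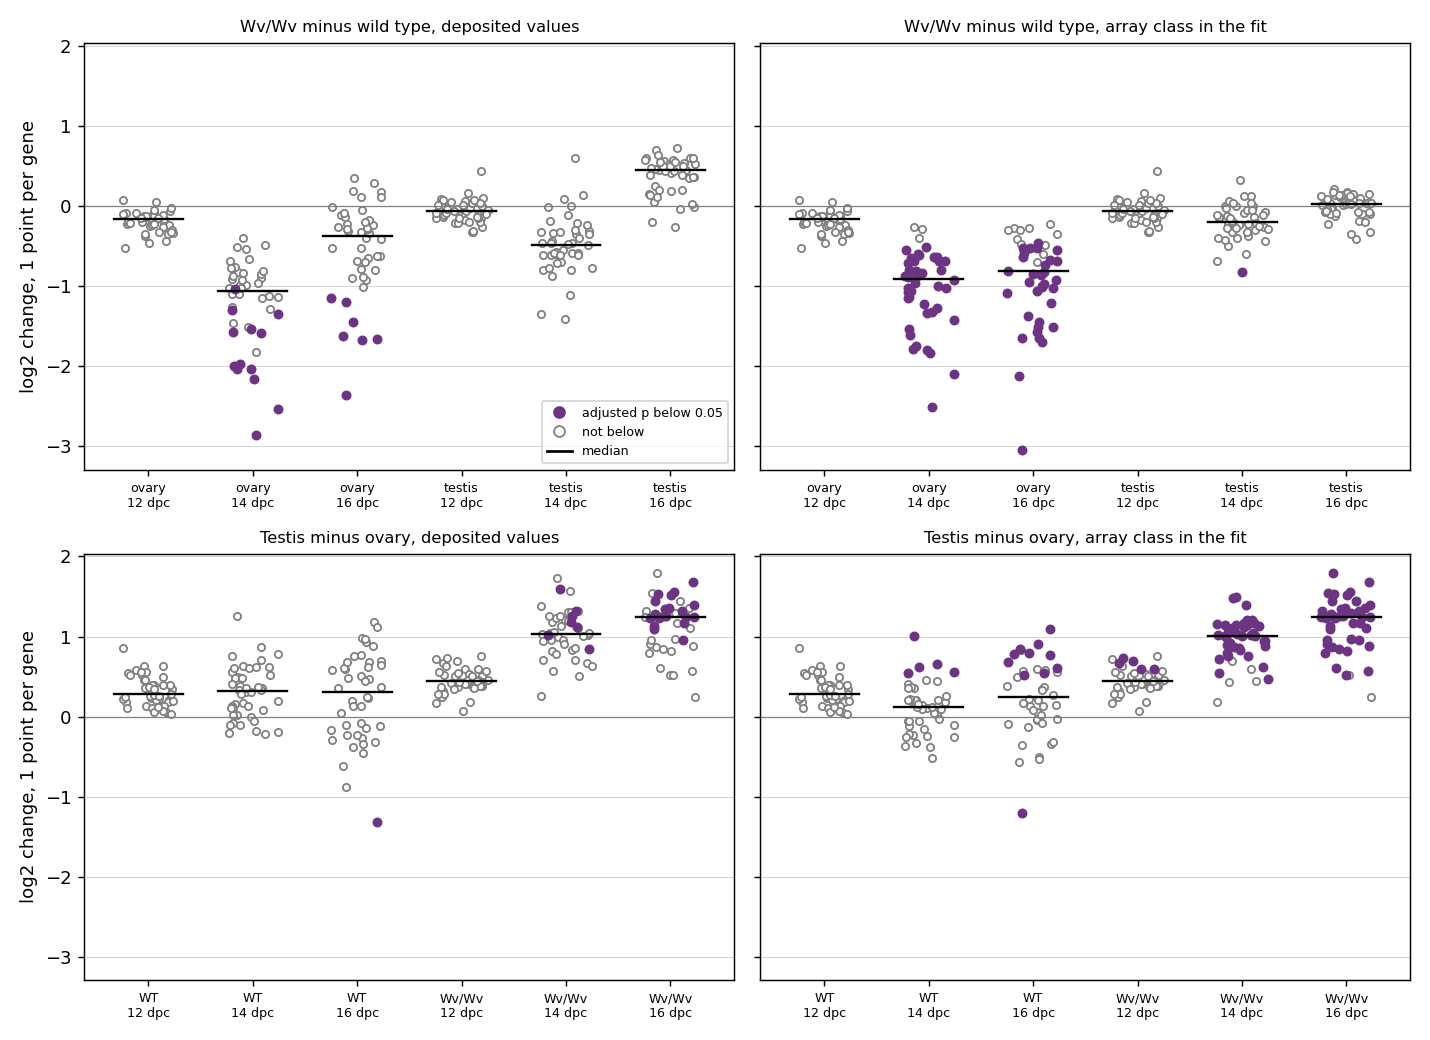
Log2 change of each of the 44 genes (points) in Wv/Wv against WT gonads (top) and in testes against ovaries (bottom), from the deposited values (left) and from the class-adjusted fit (right); filled points have an adjusted p below 0.05 and bars are medians. The lower values at 14 and 16 dpc lie in the ovary columns of the top panels, and the higher ones in the Wv/Wv columns of the bottom panels.

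In testes the same comparison moved no member past the threshold. At 12 dpc, with 1 WT array, the median log2 change was -0.06 (0 called, 0 at an unadjusted p under 0.05 in limma, 0.033% of all genes called), with Tyms at 0.44 and Nek2 at -0.32 the largest and the 6 fixed genes between -0.19 and 0.04. At 14 dpc the median was -0.48 (0 called, 4 at an unadjusted p under 0.05, 0.594% of all genes called), and -0.19 in the class-adjusted fit. There Cenpf alone was called, at -0.82 (adjusted p = 0.0161; 0.929% of all genes called lower). Cenpf read 10.89, 11.27 and 11.25 in WT testes and 10.41 and 9.04 in Wv/Wv testes, the last on a narrow array. Nek2 (-1.34) and Bub1 (-1.11) were next, and Bub1 read 10.74, 11.01 and 10.84 against 10.29 and 9.21. In 30 of 44 genes both Wv/Wv arrays lay below the WT arrays, against 14.9% of all genes.

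At 16 dpc the members' median in testes was 0.45 higher in Wv/Wv (0 called, 0 at an unadjusted p under 0.05, 0.484% of all genes called), a value that rested on WT testis replicate 1. Bub1 read 8.46 on that array and 10.72 and 10.47 on the other WT arrays, against 9.21, 10.12 and 10.20 in Wv/Wv testes, and Mki67 read 9.61, 12.11 and 12.13 against 11.63, 12.19 and 12.21. The first WT value was the lowest of its 6 in both genes. In the class-adjusted fit, which leaves that array out, the median was 0.03 and the 6 fixed genes lay between -0.41 and 0.16. Among wide-spread arrays alone the median was -0.03. Of 10 germ cell markers 0 were called lower in Wv/Wv testes at 12 dpc in limma (median -2.28), 8 at 14 dpc (12.95 to 13.46 against 8.80 to 9.63) and 8 at 16 dpc (11.07 to 13.08 against 8.62 to 9.28).

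The test of sex by genotype compares the genotype effects of testis and ovary directly. At 16 dpc 4 of 44 genes had a more positive effect in testes, against 0.649% of all genes: Rrm2 (2.16, SE 0.50, limma adjusted p = 0.0373), Ube2c (2.05, SE 0.47, adjusted p = 0.0356), Mad2l1 (1.67, SE 0.29, adjusted p = 0.00292) and Birc5 (1.61, SE 0.38, adjusted p = 0.0374). The first 3 are the genes that read higher on narrow arrays, and all WT ovary arrays at this age were narrow. The class-adjusted fit called 16 (2.32% of all genes), led by Bub1 at 2.64 (adjusted p = 1.31e-05), with Mad2l1 at 1.19 and Birc5 at 1.06 among them but not Rrm2 or Ube2c. The members' median was 0.74 with all arrays and 0.23 without WT testis 16 dpc replicate 1, where 2 genes were called. Without WT ovary replicate 2 or 3, Wv/Wv ovary replicate 1 or 3, or Wv/Wv testis replicate 1 or 3, 1 was called. At 14 dpc 0 were called (7 at an unadjusted p under 0.05 in limma, 0.275% of all genes called) at a median of 0.68. The class-adjusted fit called 14 there (1.75% of all genes), all higher, among them Bub1 (1.91, adjusted p = 0.000361), Cdc45 (1.48) and Ttk (1.38).

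Within Wv/Wv embryos the division genes were higher in testes than in ovaries at all ages, with members' medians of 0.44, 1.04 and 1.24 at 12, 14 and 16 dpc. The difference between ages was not tested. At 12 dpc all 44 means were higher in testes with a median of 0.44, none called (2 at an unadjusted p under 0.05 in limma, 0.374% of all genes called) and the 2 sexes apart in 40 genes (22.4% of all genes). Tyms, for thymidylate synthase, at 0.76 and Ube2c at 0.73 led. In the class-adjusted fit 5 were called (1.4% of all genes): Ube2c, Prc1, Cenpe, Tpx2 and Cdk1, at 0.59 to 0.73.

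At 14 dpc 7 of 44 were higher in Wv/Wv testes (2.32% of all genes), at a member median of 1.04. Prc1, which bundles microtubules of the spindle midzone, read 9.31, 8.59 and 8.10 in Wv/Wv ovaries and 10.50 and 10.03 in Wv/Wv testes (1.60, SE 0.39, adjusted p = 0.016). The groups did not overlap, and the lower testis value came from a narrow array. Nusap1, a spindle microtubule protein gene, was at 1.31, Aurka at 1.26, Birc5 at 1.19, Ccna2 (cyclin A) at 1.11, Cdk1 at 1.01 and Mad2l1 at 0.84. Aurka read 8.21, 7.72 and 7.45 in ovaries against 9.27 and 8.83 in testes. Of the S phase genes 0 of 14 were called, and Cdc6, an origin licensing factor, had the largest difference of any member without passing (1.73, SE 0.63, adjusted p = 0.186). Bub1 (1.56), Mcm5 (1.06), Ccnb2 (1.03), Mki67 (1.00) and Pcna (0.66) did not pass either. The class-adjusted fit called 39 (9.6% of all genes) at a median of 1.00, the 7 among them and 11 of the 14 S phase genes. With the deposited values the count was 24 without WT testis 16 dpc replicate 1, 14 without Wv/Wv ovary replicate 1, 2 without Wv/Wv ovary replicate 2, 1 without Wv/Wv testis replicate 2, and 0 without Wv/Wv ovary replicate 3 or Wv/Wv testis replicate 1.

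At 16 dpc 21 of 44 were higher in Wv/Wv testes and none lower (3.79% of all genes called higher), with a median of 1.24, the 7 called at 14 dpc among them. In 37 genes every testis array lay above every ovary array (10.7% of all genes). Each group has 1 narrow and 2 wide arrays here, so the changes are the same in the class-adjusted fit and only their errors differ. It called 42 (10.4% of all genes), where leaving out WT testis 16 dpc replicate 1 alone gave 35. By role, 10 of 13 cyclins, kinases and checkpoint genes, 5 of 7 kinesins and spindle genes, 3 of 10 centromere and condensin genes and 3 of 14 S phase genes passed with the deposited values.

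Ube2c read 8.93, 9.82 and 9.03 in Wv/Wv ovaries and 11.44, 10.68 and 10.69 in Wv/Wv testes (1.68, SE 0.33, adjusted p = 0.00162). Prc1 read 9.10, 8.53 and 9.32 against 10.27, 10.67 and 10.68 (1.56, SE 0.34, adjusted p = 0.00425). In both genes the lowest testis array stood well above the highest ovary array. Aurkb, the kinase of the chromosomal passenger complex, read 7.84, 7.34 and 7.84 against 8.93, 9.34 and 9.33 (1.53, SE 0.41, adjusted p = 0.0205), and Birc5, of the same complex, 8.34, 8.36 and 8.50 against 9.94, 9.79 and 9.80 (1.44, SE 0.27, adjusted p = 0.000692). Birc5 varied little within either group, whatever the array class. Cdk1 read 9.77, 9.71 and 9.72 against 10.85, 10.83 and 10.79 (1.09, SE 0.24, adjusted p = 0.00452), with a spread as small. Mad2l1 (1.39), Aurka (1.32), Kif11 (1.51), Nusap1 (1.35), Kif2c (1.28), Cenpa (1.35) and Cenpe (1.24), the last of these a kinetochore motor and Cenpa the centromeric histone, were also higher. The S phase genes called were Cdc45 (1.23), Tk1 (thymidine kinase, 1.17) and Pcna (0.96). Ccnb2 was called at 1.24, whereas Bub1 (1.44, adjusted p = 0.0765), Mki67 (1.18, adjusted p = 0.171) and Mcm5 (0.97, adjusted p = 0.347) were not, though the class-adjusted fit called all 3. Bub1 and Mki67 already passed without WT testis 16 dpc replicate 1 and with no class term. Mcm6 and Mcm4 were called in neither. The count was 9 without Wv/Wv ovary replicate 2, 8 without Wv/Wv testis replicate 2 or 3, and 35 without WT testis 16 dpc replicate 1.

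Germ cell markers did not separate the sexes in Wv/Wv gonads at 14 or 16 dpc in limma (0 of 10 called at each), and their summed levels overlapped (8.62 to 9.91 against 8.80 to 9.63 at 14 dpc, 8.90 to 9.54 against 8.62 to 9.28 at 16 dpc). Most markers of sex-specific somatic cells did, with 7 of 8 and 6 of 8 Sertoli markers and 4 of 4 Leydig markers higher in testes. Of the pregranulosa markers 6 of 7 were lower at both ages. Single genes of other lists were called at both ages too. In testes 1 of 10 meiosis genes and 1 of 3 mesonephros and tubule markers were lower, and 1 of 8 housekeeping genes was higher. The part of any of these in the difference was not tested.

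In WT gonads fewer members were called between the sexes at 14 and 16 dpc. At 12 dpc, with 1 testis array, the median was 0.28 and 0 were called (0 at an unadjusted p under 0.05 in limma, 0.253% of all genes called), the testis array lay above both ovary arrays in 42 genes (36.9% of all genes), and Plk1, a mitotic entry kinase, had the largest difference (0.86). At 14 dpc the median was 0.32 with 0 called (5 at an unadjusted p under 0.05, 5.93% of all genes called), or 3 without WT testis 16 dpc replicate 1, and the 6 fixed genes lay between -0.17 and 0.71. Aurkb read 7.38, 8.29 and 8.65 in WT ovaries and 9.44, 9.47 and 9.20 in WT testes. The testis arrays stood above all ovary arrays (1.26, SE 0.41, adjusted p = 0.0767). By the class-adjusted fit Aurkb (1.01, adjusted p = 0.000169), Cenpe (0.66), Cdk1 (0.62), Prc1 (0.56) and Nusap1 (0.55) were higher (7.76% of all genes called higher) and Bub1 was at -0.52 without being called (adjusted p = 0.0621). At 14 dpc 35 of 44 differences were positive, where all 44 were in Wv/Wv gonads.

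At 16 dpc Rrm2 alone was called in WT gonads, lower in testes (5.14% of all genes called lower). It read 11.55, 12.07 and 11.82 in ovaries and 10.39, 10.55 and 10.53 in testes (-1.32, SE 0.35, adjusted p = 0.0178), but all ovary arrays were narrow and Rrm2 read higher on such arrays. Class-adjusted it was at -0.32 (adjusted p = 0.47), and without WT ovary replicate 2 or 3 it was not called. The class-adjusted fit called 10 genes higher in testes (7.98% of all genes), among them Aurkb (1.09, adjusted p = 0.0012), Cenpe (0.90), Plk1 (0.84), Ube2c (0.80), Cdk1 (0.78) and Prc1 (0.77), and Bub1 lower (-1.20, adjusted p = 0.00115; 8.11% of all genes). Bub1 read 10.64, 10.88 and 10.76 in WT ovaries against 8.46, 10.72 and 10.47 in WT testes. Without WT testis replicate 1 the WT arrays at this age were wide-spread in testes and narrow-spread in ovaries, so sex and array class coincided. The class-adjusted changes (members' median 0.24) therefore rested on the class difference seen in other groups. With no class term 22 members were higher and 1 lower, at a median of 0.93, and sex and class cannot be told apart. Mki67 (-0.08), Ccnb2 (-0.14), Pcna (-0.24), Mcm5 (-0.46) and Cdk1 (0.36) were not called with the deposited values. In WT ovaries 10 of 10 meiosis genes were higher than in testes at 14 and at 16 dpc, and erythroid genes in 3 of 6 at 16 dpc (10.44 to 12.06 in ovaries, 9.86 to 11.62 in testes), and their part in these differences was not tested.

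With age the clearest change was in Wv/Wv ovaries between 12 and 14 dpc. All 44 means were lower at 14 dpc, with a member median change of -1.12 (all genes -0.04), and in 41 genes the 14 dpc arrays lay below the 12 dpc arrays (18.5% of all genes). Aurka alone was called with the deposited values (0.824% of all genes called lower), reading 9.18 and 9.39 at 12 dpc and 8.21, 7.72 and 7.45 at 14 dpc (-1.49, SE 0.35, adjusted p = 0.0261). All arrays at 12 dpc were wide-spread and 2 of the 3 at 14 dpc narrow. In the class-adjusted fit 28 were lower (2.93% of all genes) at a median of -0.75, with 13 of 13 cyclins, kinases and checkpoint genes but 4 of 14 S phase genes called. Bub1 was at -1.21, Ccnb2 at -0.84, Cdk1 at -0.60 and Pcna at -0.50, all called, and Mcm5 at -0.65 and Mki67 at -0.56, not called. The deposited values gave 24 calls without WT testis 16 dpc replicate 1, 16 without Wv/Wv ovary 14 dpc replicate 1, and 0 without either array at 12 dpc or without replicate 2 or 3 at 14 dpc. From 14 to 16 dpc the median in Wv/Wv ovaries was 0.03 (0 called, 2 at an unadjusted p under 0.05, 0.0989% of all genes called) and -0.18 class-adjusted. Ube2c (-0.70) and Rrm2 (-0.58) had the largest changes.

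In WT ovaries the members' median changed by -0.08 from 12 to 14 dpc (0 called, 1 at an unadjusted p under 0.05 in limma, 2.59% of all genes called). In the class-adjusted fit, at shares below those of all genes, Aurkb was lower at 14 dpc (-0.80, adjusted p = 0.00691; 5.02% of all genes called lower), and Bub1 (0.93, adjusted p = 0.00435) and Nek2 (0.73, adjusted p = 0.0341) were higher (8.2% of all genes called higher). Aurkb read 9.01 and 9.33 at 12 dpc and 7.38, 8.29 and 8.65 at 14 dpc, and Bub1 10.44 and 10.46 against 10.67, 11.54 and 10.90. Both genes were apart between the ages, in opposite directions. Over the same interval 10 of 10 meiosis genes rose (9.28 to 9.79 against 12.80 to 13.86), as did 4 of 10 germ cell markers and 1 of 6 erythroid genes, and their part in the result was not tested. From 14 to 16 dpc the median was -0.72 (0 called, 20 at an unadjusted p under 0.05, 0.357% of all genes called), and -0.30 class-adjusted. The count was 2 without WT testis 16 dpc replicate 1 and 1 without WT ovary 16 dpc replicate 2 or WT ovary 14 dpc replicate 1. Nek2 (-1.67) and Cdc6 (-1.31) had the largest changes, and among the 6 fixed genes Ccnb2 (-0.85).

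In testes no member was called with age in limma. From 14 to 16 dpc the median in WT testes was -0.80 (20 at an unadjusted p under 0.05, 0.83% of all genes called), and -0.18 once replicate 1 at 16 dpc was left out. Gmnn (-1.31) and Mcm5 (-1.24) led with that array in, and were at -0.55 and -0.43 class-adjusted. In Wv/Wv testes the median was -0.57 from 12 to 14 dpc (1 at an unadjusted p under 0.05, 2.17% of all genes called; class-adjusted -0.25) and 0.10 from 14 to 16 dpc (0 at an unadjusted p under 0.05, 0.11% of all genes called). Kif20a, a midzone kinesin gene, was at -0.95 and Ncapd2 at -0.94 in the first interval, and Rrm2 at -0.60 and Nek2 at 0.42 in the second. The test of age by genotype between 14 and 16 dpc called 0 members in ovaries (5 at an unadjusted p under 0.05; 0% of all genes) and 0 in testes (0 at an unadjusted p under 0.05; 0.0824% of all genes).

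Other genes of the cell cycle, from lists that share no gene with the 44, were measured in the same ovaries. Counts are from the deposited values unless stated. Of all genes 4.08% were called lower in Wv/Wv ovaries at 14 dpc and 2.35% at 16 dpc. Of 42 other mitosis genes 17 fell in Wv/Wv ovaries at 14 dpc (median -0.99) and 7 at 16 dpc (-0.43). They include the kinesin gene Kif18a (-2.82, SE 0.56, adjusted p = 0.00299), Espl1 for separase (-2.37), and at 16 dpc Hmmr (-1.31) and Mybl2 (-1.34), a transcription factor gene of the mitotic programme. Of 31 other replication genes 12 fell at 14 dpc (median -0.85) and 3 at 16 dpc (-0.31), among them Rpa2, of the single-strand binding complex (-2.13), and Rfc4, of the clamp loader (-1.47 at 16 dpc). Of 19 genes that act in G1 4 fell at 14 dpc (median -0.25), among them Rb1, a brake on entry into S phase (-2.47, adjusted p = 0.032, class-adjusted -1.85), and the E-type cyclin genes Ccne2 (-2.10) and Ccne1 (-1.70). At 16 dpc 1 of 19 fell, Ccne2 (-1.91), with a list median of 0.12 and 10 means higher in Wv/Wv. Within Wv/Wv gonads 8 and 19 of the 42 mitosis genes were higher in testes at 14 and 16 dpc, among them Spc25 of the outer kinetochore (1.42 at 14 dpc), and 0 and 2 of the 31 replication genes. Of all genes 2.32% and 3.79% were called higher there. The class-adjusted fit called 33 and 36 mitosis genes and 16 and 21 replication genes higher (9.6% and 10.4% of all genes). In Wv/Wv testes against WT testes 1 mitosis gene fell at 14 dpc, Mybl2 (-1.27, SE 0.22, adjusted p = 0.00171), where 0.594% of all genes were called.

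Of the 44 genes 12 have a single probe set, and the 44 are covered by 104. In Wv/Wv against WT ovaries 92 of the 104 went the way of the chosen one at 14 dpc and 86 at 16 dpc, and of 89 with a mean above the 40th percentile of all values 84 and 74 did. In Wv/Wv testes against ovaries at 16 dpc 99 of 104 and 89 of 89 did. Rrm2 showed how far probe sets of 1 gene could differ: at 14 dpc in ovaries its 3 gave -0.48, -0.97 and -1.30, and at 16 dpc -1.65, -0.90 and -1.04. The chosen probe set of Tyms had a mean signal of 6.65, the lowest of the 44.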

How the data were processed

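The data are whole-gonad RNA profiles on 31 Affymetrix arrays of 45101 probe sets. The authors deposited 1 log2 value per probe set and array, made with RMA per the submitters' processing notes; no version is named in those notes, nor whether the arrays went through it together. RMA subtracts background and equalises arrays, yet array spreads differed, so changes depend on how arrays are put on 1 scale. Arrays carry no read depth; their number limits the precision.

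Of the probe sets 34958 carried exactly 1 gene symbol in the platform annotation and 932 several, which were left out; each gene kept its brightest probe set by mean over all arrays (18194 genes). Group means were fitted over all 31 arrays and 12 groups with limma 3.58.1 in R 4.3.3 (19 residual degrees of freedom, prior 4.00), and p-values were adjusted by Benjamini-Hochberg within each of 23 comparisons over all genes, the threshold being 0.05. Summaries used Python 3.11.15, pandas 2.3.3 and numpy 2.4.6. An array was called narrow-spread where its SD over probe sets was below 2.25. Alternatives were the class as a term, wide-spread arrays alone, quantile normalization, centring on 8 housekeeping genes, array weights, the mean of a gene's probe sets, a low-signal filter, the replicate number as a block and leaving out each array. Scaling of each array's spread, narrow-spread arrays alone and the lowest-SD array left out everywhere were added after seeing the data. No pair of replicates was near identical (27 pairs, SD of the difference at least 0.179).

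Replicate numbers were checked as pairs through the correlation of deviations from group means. All 3 pairs exceeded 0.1 in Wv/Wv against WT testes at 16 dpc (0.72, 0.60 and 0.66) and in no other comparison of 3 pairs, and the labels tie no number to a litter, batch or day. In both of these groups replicate 1 is narrow-spread and replicates 2 and 3 are wide-spread, so pairing and array class cannot be told apart. Named genes are Mki67, Bub1, Ccnb2, Cdk1, Mcm5 and Pcna in each comparison, up to 4 called members per role group by size, or the 2 largest changes where none was called, and up to 3 called genes per other cell cycle list; others named were chosen after their values were seen. The members and lists were chosen with earlier results of these data known. On simulated data over 18194 genes the fit called, for Wv/Wv against WT ovaries at 14 dpc, 96% of genes changed by log2 2 and 34% of those changed by log2 1, and 86% and 37% at 16 dpc. For log2 1 it called 8% in ovaries and 8% in testes at 12 dpc, and 23% in testes at 14 dpc. For sex by genotype at 14 dpc it called 0% of such genes. The simulated noise was independent between genes and arrays and held no array class effect, so recovery in the real data can differ.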

Additional observations from a re-analysis of the deposited data

Results flagged for a closer look

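Of the 44 genes 4 had genotype effects (Wv/Wv minus WT) at 16 dpc that differed between testis and ovary in the interaction test of limma, each as the testis effect minus the ovary effect on the log2 scale: Rrm2 2.16, Ube2c 2.05, Mad2l1 1.67 and Birc5 1.61. In Rrm2 the effect was 0.50 in testes and -1.65 in ovaries, in Ube2c 0.60 and -1.45, in Mad2l1 -0.01 and -1.68, and in Birc5 0.47 and -1.15. Within groups that hold both array classes, the median of the narrow-spread minus wide-spread difference was 0.91 for Rrm2, 0.68 for Ube2c and 0.21 for Mad2l1, and 3 of the 4 groups in this comparison hold both classes. With the array class as a term and the lowest-SD array left out the values were 1.16, 0.88, 1.19 and 1.06.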

How the results depend on the processing

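Array spread is the main limit: the division genes are bright and read lower on narrow-spread arrays, all WT ovary arrays at 16 dpc are narrow, and no array class holds every group. Numbers of the 44 genes called at an adjusted p below 0.05 (limma) are given by setting, "Wv sex" standing for testes against ovaries within Wv/Wv embryos, "WT sex" for the same in WT, and "ovaries" for Wv/Wv against WT ovaries. Shares of all genes called are given above for the deposited values and the class-adjusted fit alone. For the other settings the counts show only how calls moved, not how they compare with all genes. With the array class as a term and the lowest-SD array left out, they were 41 and 33 in ovaries at 14 and 16 dpc, 1 in Wv/Wv against WT testes at 14 dpc, 5 (all higher in testes) and 11 (10 higher, 1 lower) in WT sex at 14 and 16 dpc, 5, 39 and 42 in Wv sex at the 3 ages, 3 in WT and 28 in Wv/Wv ovaries from 12 to 14 dpc, and 14 and 16 in sex by genotype at 14 and 16 dpc. On wide-spread arrays alone they were 32 in ovaries at 14 dpc, 9 in WT sex at 14 dpc, 22, 28 and 43 in Wv sex, 8 in WT and 19 in Wv/Wv ovaries from 12 to 14 dpc, 4 in WT testes from 14 to 16 dpc, 3 in Wv/Wv testes from 12 to 14 dpc and 3 in sex by genotype at 14 dpc. On narrow-spread arrays alone, added after seeing the data, they were 7 in ovaries at 14 dpc, 29 (higher) in testes at 16 dpc, where the 1 WT array is the lowest-SD one, 19 in WT sex at 16 dpc, all lower in testes at a median of -0.81 where the median was above 0 in the other settings, 2 and 5 in Wv sex at 14 and 16 dpc and 34 in sex by genotype at 16 dpc. Quantile normalization gave 31 and 22 in ovaries, 6 and 13 in WT sex (all higher in testes), 23 and 34 in Wv sex (14 and 16 dpc each), 1 in WT ovaries from 14 to 16 dpc, 18 in Wv/Wv ovaries from 12 to 14 dpc and 10 in sex by genotype at 16 dpc. Centring on housekeeping genes gave, in that order, 27, 17, 7, 17, 20, 36, 1, 16 and 8, and 1 in WT ovaries from 12 to 14 dpc. Scaling each array's spread, also added after seeing the data, gave 25, 24, 4, 11 (4 lower, 7 higher), 20, 35, no change in WT ovaries, 15 and 15. With this scaling the median change of all genes reached -0.21 in age by genotype in ovaries, where it was 0.165 with the deposited values. With housekeeping centring it was -0.35 in age by genotype in testes, against 0.15 with the deposited values. Array weights gave 42 and 19 in ovaries, 10 and 35 (34 higher, 1 lower) in WT sex, 11, 21 and 43 in Wv sex, 6 and 37 in WT ovaries and 42 and 22 in Wv/Wv ovaries over the successive intervals, 1 in WT testes from 14 to 16 dpc, 2 and 12 in sex by genotype and 41 in age by genotype in ovaries. Here Mki67 (0.65), Ccnb2 (0.52) and Pcna (0.31) in WT sex at 16 dpc and Mcm5 (0.45) in Wv/Wv ovaries from 14 to 16 dpc turned sign, and the cause was not tested. The weights fell unevenly on the array classes. In Wv/Wv ovaries at 14 dpc they were 0.12 on the wide array and 1.99 and 0.41 on the narrow ones. At 16 dpc they were 0.12 on the narrow array and 3.85 and 1.90 on the wide ones. WT testis 16 dpc replicate 1 had 0.03, against 2.70 and 1.58. Weighting and array class therefore cannot be told apart here, and the class-adjusted fit called 0 members in age by genotype in ovaries. The mean of a gene's probe sets gave 1 in testes at 14 dpc, 1 and 2 in WT sex at 14 and 16 dpc, 4 in Wv/Wv ovaries from 12 to 14 dpc and 8 in sex by genotype at 16 dpc. With the replicate number as a block 4 genes passed in Wv sex at 14 dpc, and no other count of calls moved by over 1.5 times. This held in the 16 dpc testes too, where same-numbered arrays deviated together and shared their array class. Leaving out single arrays gave 6 to 33 genes in ovaries at 14 dpc, 2 to 13 in ovaries at 16 dpc, 0 to 3 and 0 to 23 in WT sex at 14 and 16 dpc, 0 to 24 and 8 to 35 in Wv sex at 14 and 16 dpc, 0 to 2 in WT ovaries from 14 to 16 dpc, 0 to 24 in Wv/Wv ovaries from 12 to 14 dpc, 1 to 4 in sex by genotype at 16 dpc and 0 in the other 14 comparisons. The 47 named results called with the deposited values kept their direction in all 797 settings tried and their side of the threshold in 611.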

Other observations

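Inhibitors of cyclin-dependent kinases differed between the sexes in WT gonads. Of 7 such genes 4 were lower in WT testes than in WT ovaries at 14 dpc (5.93% of all genes were called), and at 16 dpc 4 were lower (5.14% of all genes called lower) and 1 higher. Cdkn1b, which encodes p27, was at -2.57 (SE 0.55, adjusted p = 0.00347) and -2.58 (adjusted p = 0.00274) at these ages, or -2.02 and -1.29 with the array class as a term and the lowest-SD array left out (class-adjusted), and Cdkn1a, which encodes p21, at -1.39 (SE 0.27, adjusted p = 0.00123) at 14 dpc. Cdkn1c (p57) was at -1.75 and Cdkn2c (p18) at 1.51 at 16 dpc (class-adjusted -1.49 and 1.28). Cdkn1b, Cdkn1a and Cdkn1c were lower in testes in Wv/Wv gonads too. At 14 dpc Cdkn1b was at -2.45 and Cdkn1a at -1.66. At 16 dpc Cdkn1a was at -1.89, Cdkn1b at -1.85 and Cdkn1c at -1.65, while 1 of the 7 genes was called higher (3.79% of all genes called higher). Which cells these differences came from was not tested. Cdk6, a G1 kinase gene, was also lower in testes, at -0.83 and -1.48 in WT and -1.23 and -2.05 in Wv/Wv gonads at 14 and 16 dpc.

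Cdkn2d (p19) fell in Wv/Wv ovaries by 1.37 on the log2 scale at 14 dpc and by 1.09 at 16 dpc, and rose in WT ovaries from 12 to 14 dpc, by 1.14. Cdkn2a was called in the same comparisons, but its group means there, 4.17 to 5.28, were all below 5.39, the 40th percentile of all values, and give no measured change. The atypical E2F genes E2f7 and E2f8 were called higher in testes at 16 dpc in both genotypes, E2f7 at 1.74 in WT and 1.48 in Wv/Wv gonads. The WT call of E2f8 was lost class-adjusted (0.67, adjusted p = 0.182). Ccnd1, the gene of cyclin D1, fell from 12 to 14 dpc in Wv/Wv gonads, by 1.03 on the log2 scale in ovaries and by 1.23 in testes.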
